A study of Mus musculus with 4 samples.

Results

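Interferon-stimulated and antigen presentation genes were followed in the cerebellum of mice given the neonicotinoid insecticide clothianidin. The set was a list of 34 genes of the interferon response, taken by gene symbol, with the brightest probe set standing for each gene. Of these, 33 were measured, among 19505 named gene symbols and 22206 probe sets in all, and each had a single probe set. Ifi44 was not analysed here. The genes were split by role into 15 measured antiviral effectors, 6 sensors and signal transducers, 7 GTPases and 5 genes of MHC class I presentation. The exposed group comprised 2 samples (replicates 6 and 7) from male C57BL/6N mice aged 10 weeks. These mice received clothianidin at 50 mg per kg per day by mouth for 4 days. The comparison group comprised 2 samples (replicates 7 and 9) from males of the same strain and age that received vehicle over the same days. All animals ran on a rotarod during dosing, brains were taken straight after that test, and no group without the rotarod was used here. RNA of each cerebellum sample went to 1 Affymetrix whole-transcript array, and values are on a log2 scale on which 1 unit is a doubling. The labels name separate samples and say no more of their origin, so a p-value here reflects variation among these samples alone, possibly technical.

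Interferons are secreted proteins that warn neighbouring cells of infection. Type I interferons bind the receptor made of Ifnar1 and Ifnar2, whose kinases Jak1 and Tyk2 phosphorylate the transcription factor Stat2. With Irf9 it enters the nucleus and takes part in binding the interferon-stimulated response element (ISRE) in the promoters of antiviral genes. Interferon gamma acts at another element, the gamma-activated site (GAS), and is the stronger inducer of guanylate-binding proteins, immunity-related GTPases, immunoproteasome subunits and class I molecules. In the brain, microglia, astrocytes, endothelial cells and neurons can all respond, and a low tonic level of these transcripts is present without infection.

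The promoters of the measured genes carried the element more often than promoters at large, at 63% against 3.99% of genes. RefSeq promoter sequences of build GRCm38.p6, covering 250 bases before to 50 after each transcript start, were found for 27 of the 33 genes. The ISRE core was searched on both strands as GAAA, NN and GAAA in one run, where N is any base. It was present in 17 of these 27 genes, and in 1079 of all 27025 genes with an entry. By role it was present in 8 of 12 effectors, 3 of 5 sensors and transducers, 5 of 5 GTPases and 1 of 5 class I genes. The shorter GAS core TTCNNNGAA, which reads alike on both strands, was present in 7 of 27 genes (25.9%), against 9.55% of all genes. In Bst2 a GAS match from position -136 overlapped an ISRE match from -130, counted from the start. A match is a stretch of letters and does not show that a factor binds there. Stretches of 70 bases before the start are given below for genes whose array values are described next, 5′ to 3′ on the strand of the gene, with ISRE cores in capitals. A core on the opposite strand begins and ends with TTTC, and cores of Isg15, Oas1a and Irgm1 overlap each other.
Ifit3: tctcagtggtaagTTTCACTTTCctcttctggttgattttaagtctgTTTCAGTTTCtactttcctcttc
Ifit3b: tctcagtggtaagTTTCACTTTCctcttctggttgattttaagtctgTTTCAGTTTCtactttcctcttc
Ifit1: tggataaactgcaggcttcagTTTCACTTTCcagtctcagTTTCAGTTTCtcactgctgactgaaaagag
Isg15: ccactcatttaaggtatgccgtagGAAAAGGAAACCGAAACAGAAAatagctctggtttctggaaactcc
Oas1a: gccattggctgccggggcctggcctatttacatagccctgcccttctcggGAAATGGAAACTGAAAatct
Gbp7: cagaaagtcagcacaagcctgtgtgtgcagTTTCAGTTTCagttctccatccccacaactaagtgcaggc
Irgm1: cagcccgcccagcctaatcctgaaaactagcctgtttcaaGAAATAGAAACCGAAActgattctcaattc
B2m: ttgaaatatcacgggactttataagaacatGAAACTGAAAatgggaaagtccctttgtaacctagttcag
These lie at chr19:34583360-34583429 (Ifit3, plus strand), chr19:34607756-34607825 (Ifit3b, plus), chr19:34640764-34640833 (Ifit1, plus), chr4:156200851-156200920 (Isg15, minus), chr5:120907526-120907595 (Oas1a, minus), chr3:142530253-142530322 (Gbp7, plus), chr11:48871421-48871490 (Irgm1, minus) and chr2:122147518-122147587 (B2m, plus). The Ifit3 and Ifit3b stretches were identical in 70 of 70 bases, and over 260 aligned bases of both promoters 258 were identical (99.2%). Ifit3 and Ifit3b are neighbouring near-identical genes, so their probe sets may measure each other's transcripts. The counts below enter them as 2 genes, although their values may not be separate measurements. The promoters of the class I genes H2-D1 and H2-K1 were identical in 222 of 253 aligned bases (87.7%), and their probe sets are open to the same doubt.

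**Figure D1:**
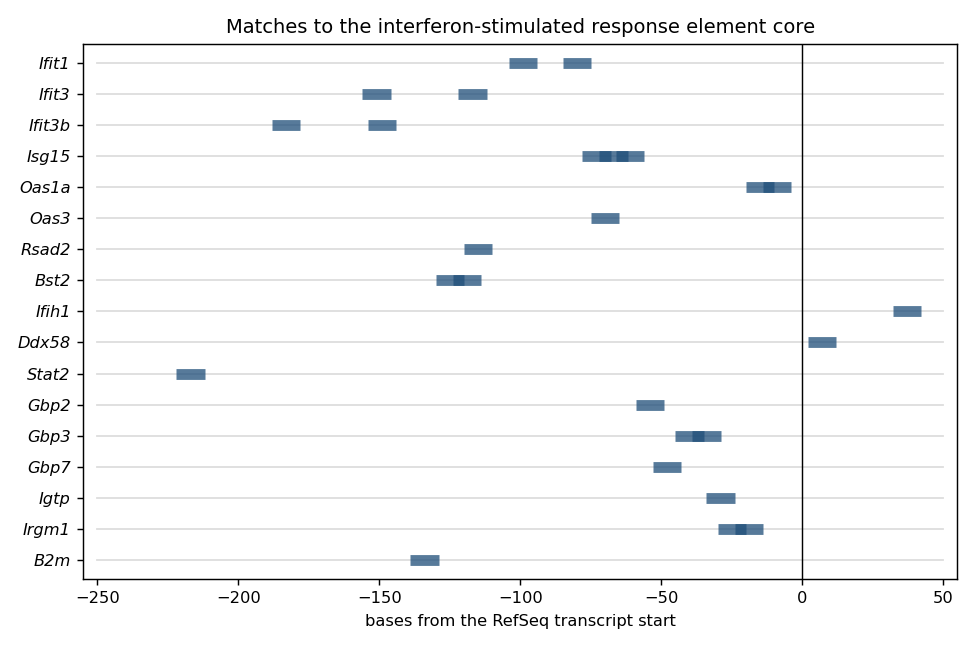
Position of each match to the ISRE core, on either strand, along the promoter of the 17 genes that held one. The x axis gives bases from the RefSeq transcript start, each bar is 1 match of the core, and darker stretches are overlapping matches; matches of Ifih1 and Ddx58 lay after the start and all the others before it.

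No interferon-stimulated or class I gene passed the test between clothianidin and vehicle mice. Of the 33 genes 0 had a limma adjusted p under 0.05, as did 0 of all 22206 probe sets (0%), and every one of the 33 had a limma adjusted p of 0.997. At an unadjusted limma p under 0.05 there was 1 gene, the antiviral synthetase gene Oas1a, which was lower, against 4.23% of all probe sets in either direction, 2.3% on the higher side and 1.93% on the lower. A gene was called apart where its groups differed by at least 1.5-fold and their values were separate, which held for 2 genes against 7.61% of all probe sets. These were B2m on the higher side, where the share of all probe sets was 4.04%, and Oas1a on the lower, where it was 3.57%. Separate groups of any size of difference were found for 8 of 33 genes, against 30.6% of all probe sets. These shares were close to or below those of the whole table, apart from the single gene on the lower side. The log2 difference, clothianidin minus vehicle, was positive for 11 genes and negative for 22, with a median of -0.15, beside a median of -0.01 over all probe sets. Olfactory receptor probe sets, 1085 of 1091 of which lay below the median level of the table, also had a median log2 difference of -0.15, and vomeronasal receptor probe sets one of -0.17. Those families were picked after seeing which probe sets were high on vehicle replicate 9. That choice favours negative differences, so they are not a neutral comparison. Without vehicle replicate 9 the median was 0.14, with 20 genes positive and 13 negative, so the sign of the median rested on that array. The numbers at unadjusted limma p under 0.05 and apart by this rule also moved with 1 array left out. No share of all probe sets was computed for those settings, and separate values arise more readily with 1 array in a group. Those numbers cannot be read against the shares above. At 11 of the 33 genes the mean lay at or above the median of all probe set means, and at 22 it lay below. Whether those dim signals stood above background is unknown from these values.

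**Figure D2:**
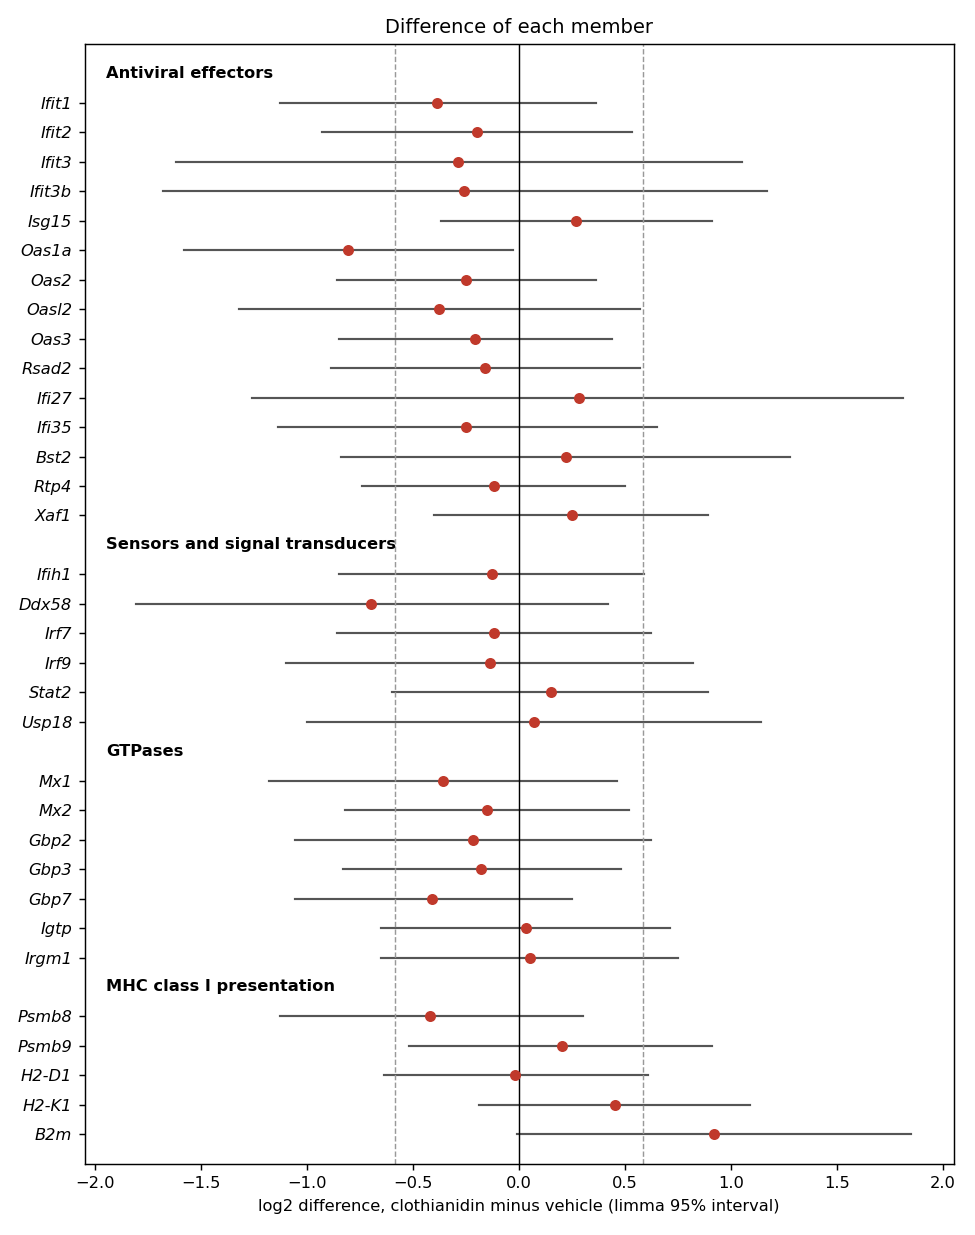
Log2 difference of each of the 33 genes, clothianidin minus vehicle, on the x axis, with genes in rows by role; points are differences of means (n = 2 arrays each) and bars are limma 95% intervals. Dashed lines mark a 1.5-fold difference; the interval lies wholly on one side of 0 for Oas1a, and that of B2m reaches from -0.01 to 1.85.

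The antiviral effectors act on viral RNA and proteins inside the infected cell. Their median log2 difference was -0.21, with 4 of 15 higher, 11 of 15 lower and 0 passing limma's adjusted threshold. Without vehicle replicate 9 the median was -0.04, with 7 higher and 8 lower, and it was -0.02 without clothianidin replicate 6 and -0.48 without clothianidin replicate 7. The Ifit family includes proteins that bind foreign RNA lacking host cap marks. Ifit3 (probe set TC1900000501.mm.2) had log2 values of 10.05 and 10.59 in clothianidin mice, against 9.62 and 11.59 in vehicle mice. Both clothianidin values lay between the vehicle values, and the log2 difference was -0.29 (standard error 0.58). Ifit3b (TC1900000502.mm.2) showed the same arrangement, with 9.35 and 9.92 in clothianidin mice against 8.81 and 10.97 in vehicle mice, and a log2 difference of -0.26 (standard error 0.62). The vehicle arrays differed 3.92-fold for Ifit3 and 4.47-fold for Ifit3b, replicate 9 over replicate 7. Without vehicle replicate 9 the log2 difference was 0.70 for Ifit3 and 0.83 for Ifit3b, and without vehicle replicate 7 it was -1.27 and -1.34. Ifit3b was also at 0.03 without clothianidin replicate 6. Ifit1 had 4.59 and 4.86 in clothianidin mice against 4.76 and 5.46 in vehicle mice, and Ifit2 had 5.39 and 5.31 in clothianidin mice against 5.21 and 5.89 in vehicle mice. In both genes the groups overlapped and vehicle replicate 9 was the highest array.

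Oligoadenylate synthetases make a short messenger on double-stranded RNA that switches on RNA cleavage. Oas1a (TC0500003181.mm.2) was at 3.96 and 4.31 in clothianidin mice, against 4.57 and 5.31 in vehicle mice. These values lay below 6.50, the median of all probe set means, so Oas1a was among the dim signals noted above. Both clothianidin arrays were below both vehicle arrays, by 0.81 on average with a standard error of 0.33 and a 95% interval of -1.58 to -0.03 (limma adjusted p = 0.997). With 1 array left out this log2 difference ranged from -1.18 to -0.44. Oas2 averaged 3.46 ± 0.01 in clothianidin mice and 3.71 ± 0.00 in vehicle mice (SD, n = 2 each), a small difference of -0.25 without overlap. Oas3 had a log2 difference of -0.21. Oasl2, a further gene of this family, had 6.53 and 6.89 in clothianidin mice against 6.49 and 7.68 in vehicle mice. The log2 difference of Oasl2 was -0.38 with all arrays and 0.22 without vehicle replicate 9.

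The other effectors did not share one pattern. Isg15, a ubiquitin-like modifier, averaged 4.14 ± 0.20 in clothianidin mice and 3.87 ± 0.08 in vehicle mice (SD, n = 2 each), with no overlap and a log2 difference of 0.27 (standard error 0.28). Xaf1, a gene linked to apoptosis, likewise had no overlap and a log2 difference of 0.25. Ifi27, which encodes an interferon-induced membrane protein, had 5.97 and 8.37 in clothianidin mice against 6.68 and 7.11 in vehicle mice. Clothianidin replicate 7 was the highest and clothianidin replicate 6 the lowest array for Ifi27. Bst2, whose product tethers budding virus to the cell surface, had 5.57 and 6.86 in clothianidin mice against 6.38 and 5.61 in vehicle mice, again with both extremes among clothianidin arrays. The log2 difference without clothianidin replicate 6 was 1.48 for Ifi27 and 0.87 for Bst2. Without clothianidin replicate 7 it was -0.93 for Ifi27 and -0.43 for Bst2, and without vehicle replicate 9 it was -0.17 for Bst2. On clothianidin replicate 7 the choroid plexus gene Ttr was at 13.96, against 6.38 on the other clothianidin array. It was at 5.70 and 5.67 on the vehicle arrays. The summed log2 level of 6 choroid plexus markers was 37.57 to 45.30 in clothianidin mice and 34.95 to 36.76 in vehicle mice. Ttr differed by 7.58 between the clothianidin arrays, which was most of the difference in that sum. Of the 6 markers, 3 were higher and 3 lower on clothianidin replicate 7 than on clothianidin replicate 6. The part of choroid plexus RNA in the Ifi27 and Bst2 values was not tested. The log2 difference was -0.16 for the radical enzyme gene Rsad2, -0.25 for Ifi35 and -0.12 for Rtp4.

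**Figure D3:**
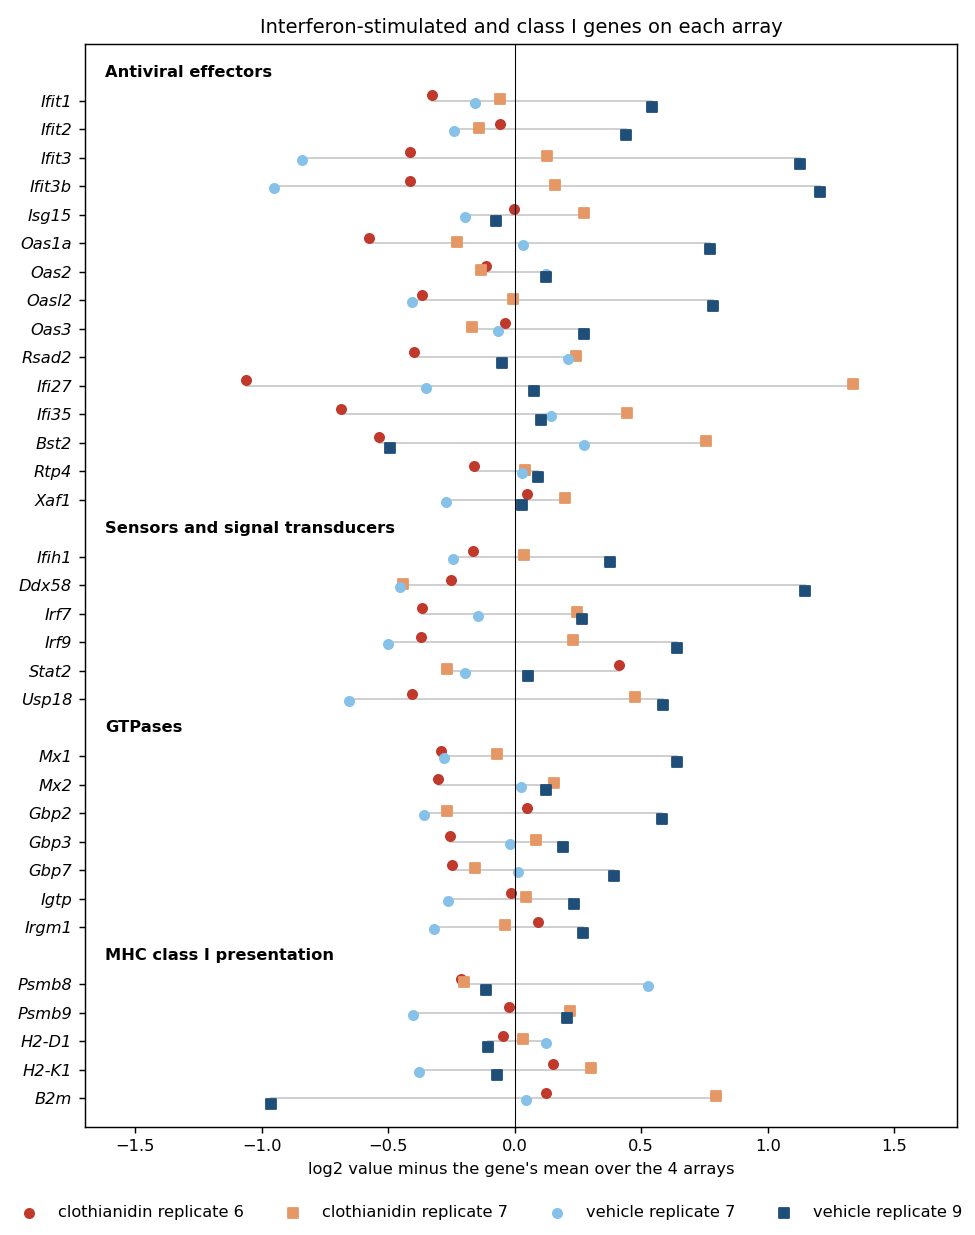
Each of the 33 genes on each array, as the log2 value minus the gene's mean over the 4 arrays, with genes in rows by role. Colours and shapes mark the arrays, and points of a row are set slightly apart in height; vehicle replicate 9 is the rightmost point for 19 genes, among them Ifit3, Ifit3b, Ddx58, Oasl2 and Mx1, and the leftmost for B2m and H2-D1.

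Sensors and signal transducers detect viral RNA and carry the interferon signal to the nucleus. Their median log2 difference was -0.13, with 2 of 6 higher, 4 of 6 lower and 0 passing limma's adjusted threshold. Ddx58 (TC0400002434.mm.2), which encodes the cytosolic RNA sensor RIG-I, had 5.99 and 5.80 in clothianidin mice against 5.79 and 7.39 in vehicle mice. Vehicle replicate 9 stood 1.60 above vehicle replicate 7, while the clothianidin arrays and vehicle replicate 7 lay close together. The log2 difference of Ddx58 was -0.70 with a standard error of 0.48, and 0.11 without vehicle replicate 9. Ifih1, which encodes the related sensor MDA5, had 7.83 and 8.03 in clothianidin mice against 7.75 and 8.37 in vehicle mice. Stat2 had 10.46 and 9.78 in clothianidin mice against 9.85 and 10.10 in vehicle mice, and was the only one of the 33 genes to be highest on clothianidin replicate 6. Irf9, its DNA-binding partner, had 5.46 and 6.06 in clothianidin mice against 5.33 and 6.47 in vehicle mice. Usp18, which removes Isg15 from proteins and dampens receptor signalling, had 4.00 and 4.88 in clothianidin mice against 3.75 and 4.99 in vehicle mice. In Irf9 and Usp18 the vehicle values enclosed both clothianidin values. Irf7, the factor that amplifies interferon production, had a log2 difference of -0.12 with a 95% interval of -0.86 to 0.62. Without vehicle replicate 9 the median of these 6 genes was 0.23, and without clothianidin replicate 6 it was 0.07.

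The interferon-inducible GTPases attack the membranes of pathogen-containing compartments or viral particles. Their median log2 difference was -0.18, with 2 of 7 higher, 5 of 7 lower and 0 passing limma's adjusted threshold, and without vehicle replicate 9 it was 0.10. Gbp7, a guanylate-binding protein gene, had 6.80 and 6.89 in clothianidin mice against 7.06 and 7.44 in vehicle mice. Gbp7 was the one GTPase gene whose groups did not overlap, with a log2 difference of -0.41 and a standard error of 0.28. Gbp3 had 6.45 and 6.79 in clothianidin mice against 6.69 and 6.90 in vehicle mice, and Gbp2 had 5.84 and 5.52 in clothianidin mice against 5.43 and 6.37 in vehicle mice. Irgm1, an immunity-related GTPase gene that regulates the others of its family, had 6.35 and 6.22 in clothianidin mice against 5.94 and 6.53 in vehicle mice, a log2 difference of 0.05 with a 95% interval of -0.65 to 0.75. Igtp, another of that family, had a log2 difference of 0.03. Mx1, a dynamin-like gene that is defective in C57BL/6 mice, had 4.60 and 4.82 in clothianidin mice against 4.61 and 5.53 in vehicle mice, and Mx2 had a log2 difference of -0.15. All 7 GTPase genes were higher on vehicle replicate 9 than on vehicle replicate 7.

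Class I presentation displays peptides, cut by the proteasome, on the cell surface for CD8 T cells. The median log2 difference of its 5 genes was 0.20, with 3 higher, 2 lower and 0 passing limma's adjusted threshold. B2m (TC0200001838.mm.2), the light chain shared by all class I molecules, had 15.14 and 15.81 in clothianidin mice against 15.06 and 14.05 in vehicle mice. Both clothianidin values were above both vehicle values, though clothianidin replicate 6 exceeded vehicle replicate 7 only slightly. The log2 difference of B2m was 0.92 with a standard error of 0.40 (limma adjusted p = 0.997). With 1 array left out it ranged from 0.42 without vehicle replicate 9, the lowest array for B2m, to 1.43 without vehicle replicate 7. H2-K1, a class I heavy chain gene, had 10.84 and 10.99 in clothianidin mice against 10.31 and 10.62 in vehicle mice, a log2 difference of 0.45 without overlap (standard error 0.28). H2-D1, the other heavy chain gene, had 7.04 and 7.12 in clothianidin mice against 7.21 and 6.98 in vehicle mice, a log2 difference of -0.02 with a 95% interval of -0.64 to 0.61. The immunoproteasome subunit genes pointed in opposite directions, with log2 differences of -0.42 for Psmb8 and 0.20 for Psmb9. Psmb8 averaged 4.21 ± 0.01 in clothianidin mice and 4.62 ± 0.45 in vehicle mice (SD, n = 2 each).

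The spread between the vehicle arrays exceeded the difference between groups for most of these genes. The absolute gap between vehicle replicates 9 and 7 was larger than the group difference for 25 of 33 genes (75.8%), against 62.7% of all probe sets. Vehicle replicate 9 was above vehicle replicate 7 for 26 of 33 genes (78.8%), against 44.8% of all probe sets. It was the highest of the 4 arrays for 19 of 33 genes (57.6%), against 24.5% of all probe sets, and for 0 of the 5 class I genes. By role it was the highest array for 8 of 15 effectors, 5 of 6 sensors and transducers and 6 of 7 GTPases. By promoter it was the highest array for 12 of the 17 genes with an ISRE match and for 4 of the 10 matched genes without one. Promoter and role overlapped in this split, as only 1 of the 5 class I genes held an ISRE match. The part of either was not tested. The signed gap, vehicle replicate 9 minus vehicle replicate 7, was ranked from the most positive down over 22206 probe sets. Ifit3b, with 2.16, was at place 50 and Ifit3, with 1.97, at place 84. Clothianidin replicate 7 was above clothianidin replicate 6 for 26 of 33 genes (78.8%), against 48.5% of all probe sets. The full order of vehicle replicate 9, clothianidin replicate 7, clothianidin replicate 6 and vehicle replicate 7, from high to low, was shared by 7 genes, namely Ifit3, Ifit3b, Oasl2, Ifih1, Irf9, Usp18 and Igtp, 21.2% of the set against 5.03% of all probe sets. These measures were chosen after the values had been seen, and genes on 1 array are not independent, so they carry no test.

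Vehicle replicate 9 also stood high for families of genes that are not known as interferon targets. These families were picked after seeing which probe sets were high on that array. Their height there follows from the choice and carries no test. Vehicle replicate 9 was the highest array for 31 of 45 probe sets of Y-linked genes, 7 of 9 of major urinary protein genes, 154 of 321 of vomeronasal receptor genes and 449 of 1091 of olfactory receptor genes. The Y-linked genes had a median gap of 1.35 between vehicle replicates 9 and 7, beside 0.41 for the interferon set, 1.14 for major urinary protein genes, 0.30 for vomeronasal receptor genes and 0.13 for olfactory receptor genes. The order of arrays given above was held by 21 of the 45 Y-linked probe sets (46.7%), 2 of the 9 major urinary protein (22.2%), 43 of the 321 vomeronasal receptor (13.4%) and 65 of the 1091 olfactory receptor probe sets (5.96%). Over all probe sets that share was 5.03%. All animals were labelled male, many of these genes come in multiple similar copies, and the sensory receptor and urinary protein genes are known chiefly from tissues other than cerebellum. The part of whatever moved these families in the interferon values was not tested.

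**Figure D4:**
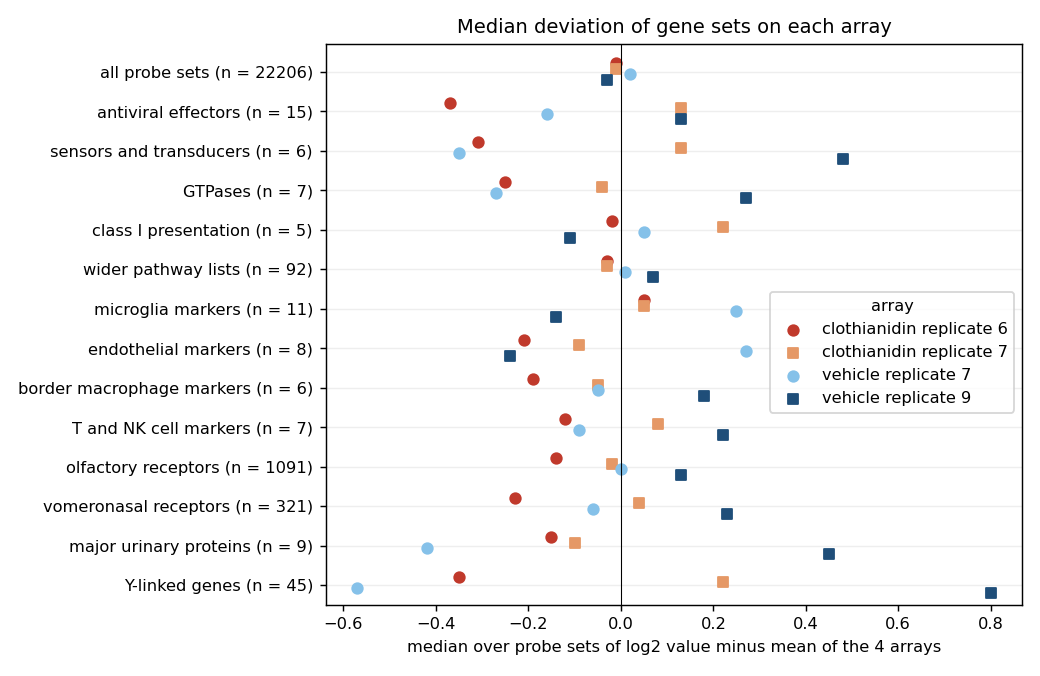
Median, over the probe sets of each gene set, of the log2 value minus the mean of the 4 arrays, on the x axis; rows are gene sets with the number of probe sets, and colours and shapes mark the arrays. Vehicle replicate 9 lies at 0.48 for sensors and transducers and 0.27 for GTPases, and at 0.80 for Y-linked and 0.45 for major urinary protein genes, while it lies at -0.14 for microglia, -0.24 for endothelial, 0.18 for border macrophage and 0.22 for T and NK cell markers.

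Markers of cells that can carry an interferon response differed in their order across arrays. On vehicle replicate 9 the median level relative to the 4-array mean was -0.14 for microglia and -0.24 for endothelial markers, but 0.18 for border macrophage and 0.22 for T and NK cell markers. The labelled tissue was borne out by Purkinje and granule cell markers, with Car8 at 18.35 and 18.45 in clothianidin mice against 18.30 and 18.19 in vehicle mice, and Gabra6 at 17.05 and 17.40 in clothianidin mice against 17.41 and 17.09 in vehicle mice. Of 11 microglia markers 2 were higher and 9 lower, with summed log2 levels of 71.99 to 72.17 in clothianidin mice and 71.81 to 74.51 in vehicle mice. The microglial purinergic receptor gene P2ry12 was at 10.03 and 9.88 in clothianidin mice against 9.86 and 9.34 in vehicle mice. The microglial genes Aif1 and Trem2 had log2 differences of 0.93 and -0.59 without overlap. Of 8 endothelial markers 2 were higher and 6 lower, with summed log2 levels of 76.26 to 78.20 in clothianidin mice and 76.08 to 80.36 in vehicle mice, and the junction gene Cldn5 at 9.80 and 10.40 in clothianidin mice against 10.92 and 9.82 in vehicle mice. Microglial and endothelial markers were highest, by their medians, on vehicle replicate 7, which was the lowest array for 15 of the 33 interferon genes. The part of these cells in the interferon values was not tested. In whole tissue, fewer cells of a type and less RNA per cell cannot be told apart.

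No gene of any marker list passed limma's adjusted threshold. Border macrophage markers had 2 of 6 higher, with summed log2 levels of 34.02 to 34.49 in clothianidin mice and 34.01 to 35.78 in vehicle mice, and a log2 difference of 0.07 for Mrc1. T and NK cell markers had 2 of 7 higher, with sums of 33.71 to 34.90 in clothianidin mice and 34.07 to 35.92 in vehicle mice, and Cd3e at 4.31 and 4.71 in clothianidin mice against 4.88 and 4.88 in vehicle mice. Blood markers had 2 of 3 higher, with Alas2 at 6.85 and 6.56 in clothianidin mice against 6.52 and 6.28 in vehicle mice, and astrocyte and Bergmann glia markers 3 of 6, with Aqp4 at 14.99 and 15.01 in clothianidin mice against 15.51 and 14.93 in vehicle mice. Oligodendrocyte markers had 0 of 5 higher, with a log2 difference of -0.73 for the myelin gene Cnp. Choroid plexus markers had 4 of 6 higher, with 0.88 for the folate receptor gene Folr1. Purkinje cell markers had 4 of 4 higher, with log2 differences of 0.68 for Pcp2 and 0.66 for Calb1. Granule cell markers had 2 of 5 higher and 3 lower, with a median log2 difference of -0.03 and 0.82 for Fat2. No marker was listed at 0, and the lowest value in the table was 2.2.

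Across the wider interferon pathway, 92 of 103 listed genes were measured and 0 passed limma's adjusted threshold. Of these 40 were higher and 52 lower, with a median log2 difference of -0.03. Among the 92 genes 2 were at least 1.5-fold apart without overlap, a smaller share than the 7.61% of all probe sets. Ube2l6, which encodes the conjugating enzyme that loads Isg15, had 6.75 and 7.76 in clothianidin mice against 5.98 and 6.25 in vehicle mice, a log2 difference of 1.14 (standard error 0.37). Parp9, an ADP-ribosylation gene of the antiviral response, had 5.26 and 5.57 in clothianidin mice against 5.97 and 6.69 in vehicle mice, a log2 difference of -0.92 (standard error 0.33). These 2 genes lay in opposite directions, and both had a limma adjusted p of 0.997. The number apart by this rule also moved with 1 array left out, where it cannot be read against that share.

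List by list, the median log2 difference lay between -0.23 and 0.05. All 11 measured interferon genes had negative differences, with a median of -0.23 and a range of -0.51 to -0.05, and 10 of them had a mean below the median of all probe sets. Differences were negative for 11368 of all 22206 probe sets, for 753 of 1091 olfactory receptor and for 218 of 321 vomeronasal receptor probe sets. The receptor families were picked after seeing which probe sets were high on vehicle replicate 9, which favours negative differences. With 1 array left out, the interferon genes with a positive difference numbered 3 without vehicle replicate 9 (Ifna4, Ifna5 and Ifnb1), 4 without vehicle replicate 7, 4 without clothianidin replicate 7 and 0 without clothianidin replicate 6. Ifnb1, the interferon beta gene, had 3.71 and 3.66 in clothianidin mice against 3.61 and 4.13 in vehicle mice, so its groups overlapped. Receptor, kinase and feedback genes had 7 of 11 higher and a median of 0.01, with log2 differences of 0.14 for Ifnar1, 0.15 for Ifnar2, 0.53 for Jak2 and 0.19 for Tyk2. Further sensors, adaptors and IRF genes had 8 of 18 higher with a median of -0.01, and other interferon-stimulated genes 13 of 26 with a median of -0.01. Other GTPases had 1 of 6 higher with a median of -0.20, and 6 of 6 were higher on vehicle replicate 9 than on vehicle replicate 7. Further class I genes had 8 of 14 higher with a median of 0.05, including the proteasome activator gene Psme1 at 0.58 and the peptide transporter gene Tap1 at -0.18. Class II genes, which serve professional antigen-presenting cells, had 3 of 6 higher with a median of 0.01.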

How the data were processed

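The authors deposited log2 probe set summaries of 4 arrays, to 2 decimals; the submitters' processing notes name RMA. RMA settings and the log base are not given in the sources used here, so base 2 was taken as RMA's own scale. No scanner files, scan dates or batches were used, so signal over background is unknown, and the number of arrays limits the precision. Gene names came from the platform annotation, which gave 19572 probe sets 1 symbol, 0 several and left 2634 unnamed here; of the wider lists, 2 names were matched through gene identifiers. Differences were fitted with limma 3.58.1 in R 4.3.3 (lmFit and eBayes, all 22206 probe sets, Benjamini-Hochberg at 0.05), with 5.96 prior and 2 residual degrees of freedom and a median standard error of 0.298. The promoter sequences are RefSeq's. All 33 members were named, with array values for those with an absolute log2 difference of at least 0.5, for the 3 highest in mean level in each role, and for near-identical pairs; values of Ifit1, Ifit2, Oasl2, Bst2, Irf9, Usp18, Gbp2 and Mx1 were added after they were seen. From other lists, genes with unadjusted limma p under 0.05, or 1.5-fold apart without overlap, were named, with 1 marker per cell type; Ifnar1, Ifnar2, Jak2, Tyk2, Ifnb1, Ifna4, Ifna5, Psme1 and Tap1 were added after their values were seen. The members and lists were chosen with earlier results of these data known. A planned comparison of protein sequences was not analysed here. Alternatives were other normalizations, a level filter, other variance models, other folds, the lowest probe set per gene, and leaving out each array; for the interferon genes this last was chosen after seeing the data.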

Additional observations from a re-analysis of the deposited data

How the results depend on the processing

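No paired analysis was possible because the groups share a single replicate number. No member passed limma's adjusted threshold under any alternative run. Over the whole table the number called was 8 without variance moderation. That fit set p to 0 where values were tied within each group and the groups differed. Tlr7 of the wider lists was such a case, with 5.53 and 5.53 in clothianidin mice against 5.99 and 5.99 in vehicle mice. How many of the 8 were ties of this kind was not counted, so they cannot be read as tested differences. Members with unadjusted p under 0.05, 1 in the report, numbered 2 after median centring, 0 after quantile normalization, 2 with trend and robust moderation and 0 to 6 with 1 array left out. Members apart without overlap, 2 in the report, numbered 1 with the level filter, 5 at the lower fold tried, 0 at 2-fold and 4 to 11 with 1 array left out; genes of the wider lists numbered 1 with the filter and 4 to 11. The median over members ranged from -0.37 to 0.14 with 1 array left out, that of effectors from -0.48 to -0.02, of sensors and transducers from -0.50 to 0.23 (0.01 with the filter), of GTPases from -0.35 to 0.10, of class I genes from 0.08 to 0.42 (0.45 with the filter), and of the wider lists from -0.10 to -0.04 (0.01 after quantile normalization and 0.01 with the filter). With 1 array left out, 12 of 33 members kept their sign and 21 did not, and the cause was not tested beyond the array named. Those 21 log2 differences ranged from -0.54 to 0.14 for Ifit2, -1.27 to 0.70 for Ifit3, -1.34 to 0.83 for Ifit3b, -0.97 to 0.22 for Oasl2, -0.48 to 0.16 for Rsad2, -0.93 to 1.48 for Ifi27, -0.81 to 0.32 for Ifi35 and -0.43 to 0.87 for Bst2. They ranged from -0.44 to 0.18 for Ifih1, -1.50 to 0.11 for Ddx58, -0.43 to 0.19 for Irf7, -0.71 to 0.43 for Irf9, -0.20 to 0.49 for Stat2, -0.55 to 0.69 for Usp18, -0.82 to 0.10 for Mx1, -0.38 to 0.08 for Mx2 and -0.69 to 0.25 for Gbp2. They ranged from -0.22 to 0.28 for Igtp, -0.25 to 0.35 for Irgm1, -0.11 to 0.50 for Psmb9 and -0.13 to 0.10 for H2-D1, which was 0.01 after median centring. Fits with 1 array in a group assume that it varies like the other group. Separate values also arise more readily with 1 array in a group. The counts with 1 array left out have no like share of all probe sets beside them.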
